A study of Rattus norvegicus with 6 samples.

Results

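The transcription factors that drive the conversion of stromal cells into fat cells were followed in bone marrow mesenchymal stem cells of the rat. These are marrow stroma grown on plastic, with the capacity to become bone, cartilage or fat cells. The 9 genes were chosen by name, with earlier results of these data known. Cebpb, Cebpd, Klf5 and Ebf2 act early, and Pparg, Cebpa, Klf15, Srebf1 and Rxra act late. All 9 were among the 21026 gene symbols of the count table, and all 9 were among the 14273 genes with enough counts to test. The study compared 3 libraries of polyadenylated RNA from cells labelled young with 3 from cells labelled aged. By its title, the study is about mitophagy, double-stranded DNA arising in the cell itself, and the healing of bone in the elderly. The labels give no strain, age in months, sex, passage or culture medium for either group, and no treatment other than the age class. They number the libraries of each group as biological replicates without saying that each came from its own animal. The p-values therefore refer to variation among the 6 libraries, some of which may be technical.

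Adipogenesis runs as a relay of transcription factors. Hormonal signals first raise the C/EBP proteins beta and delta together with zinc-finger factors such as KLF5, and these switch on PPARG and C/EBP alpha, which then keep each other on and activate the genes of the fat cell. PPARG binds DNA as a pair with the retinoid receptor RXRA, and SREBP1, the product of Srebf1, turns on fatty acid synthesis. In the marrow, stromal progenitors choose between this programme and bone formation, and marrow fat is known to increase with age.

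Total counts were 34638874 to 42479626 per library. Levels are given in CPM, a library's counts divided by its TMM-adjusted size, which is meant to correct for differences in RNA composition between libraries. Each level is compared for 1 gene between groups. No transcript lengths were used, so levels of different genes are not compared as amounts of transcript. Sums and cut-offs over markers are in CPM and reflect transcript length as well as level. In aged libraries, 4.25% to 4.46% of counts came from genes of the mitochondrial genome, against 1.07% to 1.36% in young ones, and the part of this in the results below was not tested. Of 11 stromal markers, Col1a1, Col1a2, Thy1, Pdgfra, Pdgfrb, Vim, Eng, Nt5e and Cxcl12 were above 10 CPM in both groups, whereas Lepr and Vcam1, markers of marrow stroma in vivo, had means under 1 CPM in both.

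All 9 factors were called between the groups, 7 lower and 2 higher in aged cells. A call was an adjusted p under 0.05 in the quasi-likelihood test of edgeR, adjusted by Benjamini-Hochberg over all genes. This count is not particular to them, since 86.4% of all tested genes were called, 44.7% higher and 41.8% lower. Scaled by library size alone, log2 changes were higher, with a median shift of 0.34, and 62.3% of called genes were higher instead of 51.7%, and the factors still split into 7 lower and 2 higher. Every late factor fell. The early factors split, with Cebpb and Cebpd lower and Klf5 and Ebf2 higher. The median log2 change, aged over young, was -1.73 over the 9 factors, -0.68 over the 4 early ones and -1.73 over the 5 late ones, beside 0.05 over all tested genes. In all 9 the 3 aged libraries lay wholly above or wholly below the 3 young ones, as they did in 87.5% of tested genes.

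**Figure D1:**
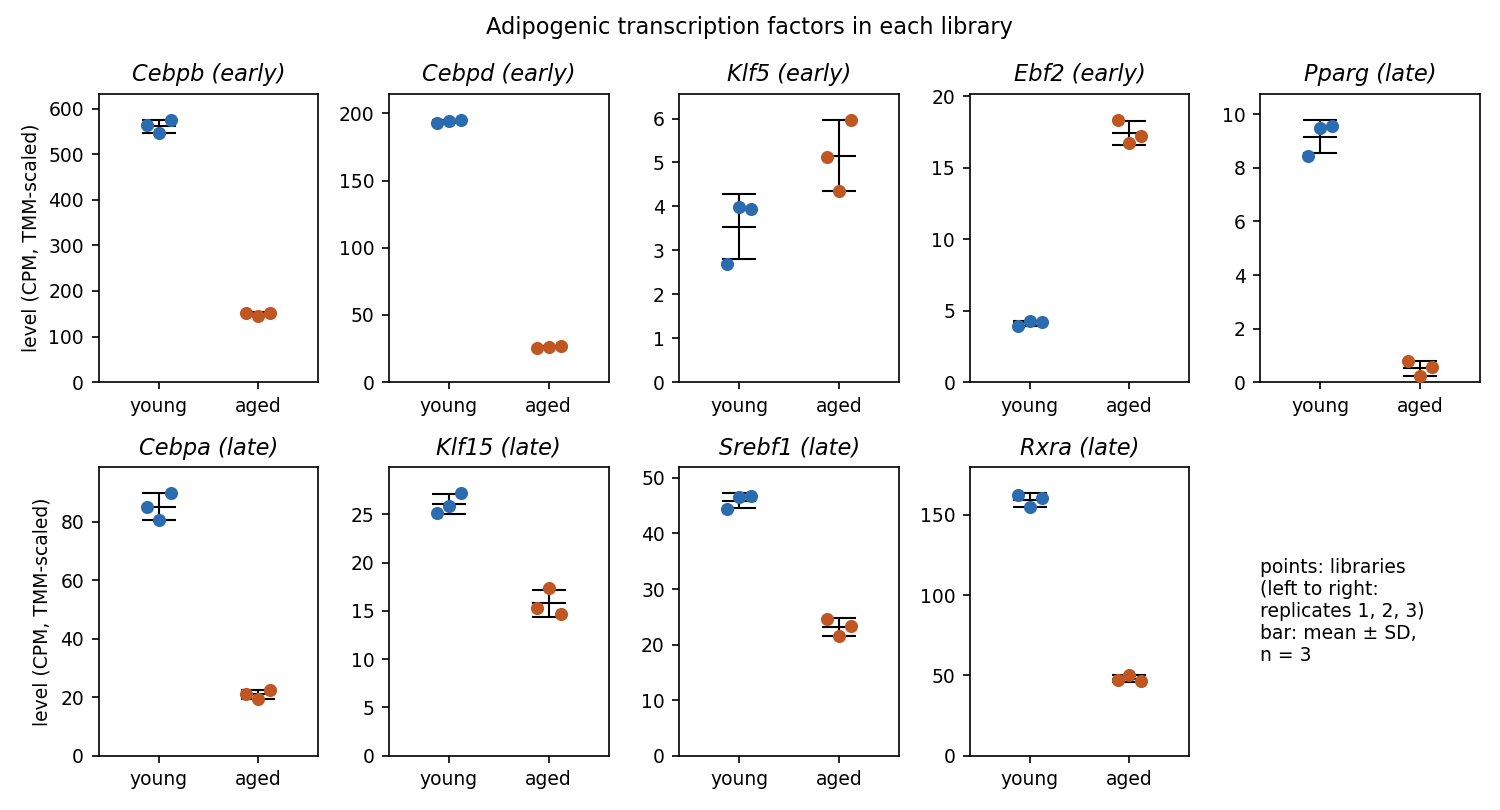
Level of each adipogenic factor in CPM (vertical axes from 0, each with its own range) in the 3 young (blue) and 3 aged (orange) libraries, with the mean and SD of each group. The 2 groups do not overlap for any of the factors, and the gap is narrowest for Klf5, with 3.98 CPM in the highest young library and 4.36 CPM in the lowest aged one.

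Of the early factors, Cebpb encodes C/EBP beta, a leucine-zipper factor raised by cyclic AMP and inflammatory signals at the onset of adipogenesis. Its level was 564, 546 and 574 CPM in the young libraries and 151, 146 and 152 CPM in the aged ones. The libraries of each group lay close together and the groups far apart. Cebpb thus fell 3.75-fold, with a log2 change of -1.91 ± 0.03 (SE; edgeR adjusted p = 3.3e-18).

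Cebpd encodes C/EBP delta, which glucocorticoids raise alongside C/EBP beta. It was at 193, 194 and 195 CPM in young and 25.7, 26.2 and 27.1 CPM in aged libraries. No library departed from its group, with a coefficient of variation of 0.621% in young and 2.69% in aged cells. The fall was 7.37-fold, a log2 change of -2.88 ± 0.04 (SE; edgeR adjusted p = 4.4e-19).

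Klf5 encodes a zinc-finger factor that C/EBP beta and delta switch on and that helps to activate Pparg. It had 2.69, 3.98 and 3.95 CPM in young and 5.13, 4.36 and 5.97 CPM in aged libraries, from 97 to 233 counts each. Young replicate 1 was lowest, aged replicate 2 lay just above the other young libraries, and the groups did not overlap. Klf5 rose 1.45-fold, a log2 change of 0.54 ± 0.18 (SE; edgeR adjusted p = 0.010). The call rested on single libraries: the adjusted p was 0.069 without young replicate 1, with a change of 0.35, and 0.067 without aged replicate 3, with a change of 0.42.

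Ebf2 encodes a helix-loop-helix factor that marks precursors of brown and beige fat and is also present in marrow stromal progenitors. It was between 3.91 and 4.25 CPM in the 3 young libraries and at 18.4, 16.7 and 17.3 CPM in the aged ones. All aged libraries stood at about the same height, well above the young ones. The rise was 4.23-fold, a log2 change of 2.08 ± 0.10 (SE; edgeR adjusted p = 2.0e-12), and 84.2% of tested genes had a lower log2 change.

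Among the late factors, Pparg encodes the nuclear receptor without which fat cells do not form. It was at 8.45, 9.50 and 9.57 CPM in young and 0.775, 0.229 and 0.564 CPM in aged libraries. The aged values rest on 32, 10 and 22 counts, against 305 to 360 in young libraries, and aged replicate 2 was the lowest. Pparg fell 17.6-fold, a log2 change of -4.14 ± 0.24 (SE; edgeR adjusted p = 2.4e-11). Of all tested genes, 245 had a lower log2 change than Pparg. The coefficient of variation was 52.6% in aged and 6.83% in young cells, so the size of the fall is less precise than for the other factors.

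Cebpa encodes C/EBP alpha, which sustains Pparg expression and insulin sensitivity in fat cells. It was at 85.0, 80.7 and 89.8 CPM in young and 21.2, 19.3 and 22.4 CPM in aged libraries. The aged libraries all lay far below the young ones. Cebpa fell 4.07-fold, a log2 change of -2.02 ± 0.06 (SE; edgeR adjusted p = 4.4e-15).

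Rxra, the retinoid receptor gene that supplies PPARG's partner and also the partner of vitamin D, thyroid hormone and liver X receptors, was at 162, 155 and 161 CPM in young libraries. In aged libraries it was at 47.2, 50.4 and 46.2 CPM. The spread within each group was small beside the gap. The fall was 3.32-fold, a log2 change of -1.73 ± 0.05 (SE; edgeR adjusted p = 4.5e-16).

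Srebf1 encodes the SREBP1 proteins, which are released from the endoplasmic reticulum membrane to activate lipid synthesis genes. It was at 44.3, 46.6 and 46.7 CPM in young and 24.6, 21.5 and 23.4 CPM in aged libraries. It fell 1.98-fold, a log2 change of -0.99 ± 0.07 (SE; edgeR adjusted p = 1.6e-10). Klf15 encodes a zinc-finger factor that rises late, responds to glucocorticoids and activates the glucose transporter gene Slc2a4. It was at 25.2, 25.9 and 27.2 CPM in young and 15.3, 17.3 and 14.7 CPM in aged libraries. Klf15 fell 1.65-fold, a log2 change of -0.72 ± 0.08 (SE; edgeR adjusted p = 1.8e-07). These were the smallest falls among the 7 lower factors, and in both genes the groups stayed apart.

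**Figure D2:**
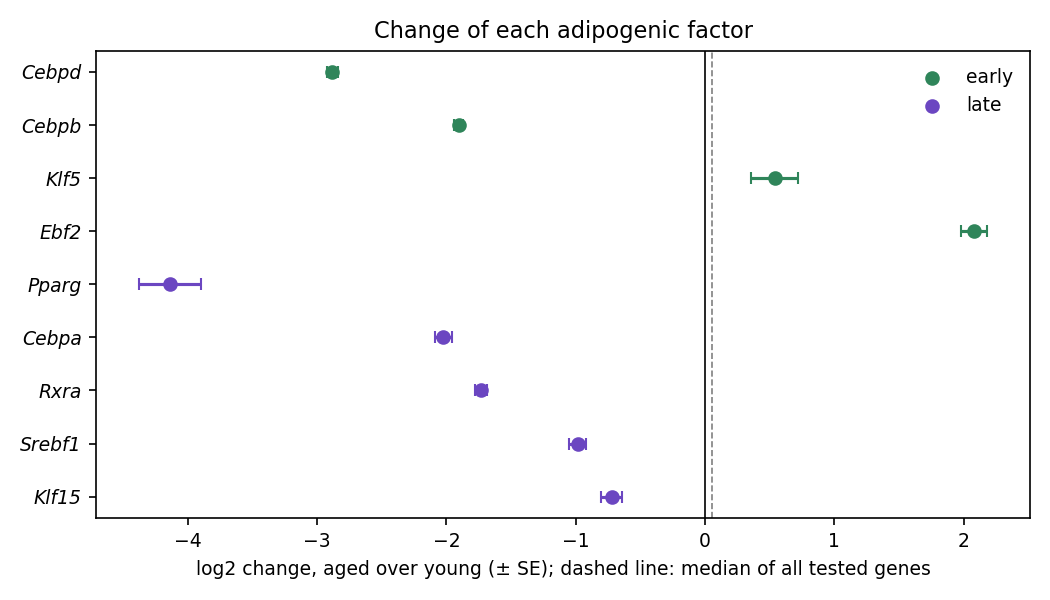
Log2 change of each factor, aged over young (horizontal axis), with its standard error from the edgeR fit; green points are early and purple points late factors, and the dashed line is the median of all tested genes, 0.05. The late factors all lie between -4.14 and -0.72, whereas the early factors run from -2.88 to 2.08.

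In the order of their changes from lowest to highest the factors were Pparg, Cebpd, Cebpa, Cebpb, Rxra, Srebf1, Klf15, Klf5 and Ebf2. The neighbours Cebpa and Cebpb differed by 0.12 on the log2 scale with a combined standard error of 0.07, so their order is not resolved. Rxra lay 0.17 above Cebpb with a combined standard error of 0.06, and Klf15 lay 0.26 above Srebf1 with one of 0.10. The remaining neighbours differed by 0.75 or more. Against a threshold of a 1.5-fold change, which 61.4% of tested genes passed, 8 of the 9 factors were called and Klf5 was not (edgeR adjusted p = 0.47). Only Ebf2 rose by at least 2-fold, as 29.4% of tested genes did, and Pparg, Cebpd, Cebpa, Cebpb and Rxra fell by at least 2-fold, as 21% did.

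RefSeq start sites were used to show the promoters of the factors at the centre of the relay, since Cebpa and Cebpb fell by like amounts and Pparg fell furthest. The table used, of build GRCr8, held 9 start sites for 7 of the factors and none for Cebpd and Ebf2. For each, the 250 bases before the start were searched on both strands for 6 short motifs. The C/EBP-type sequence was searched in the relaxed form TTNNGNAA. The TATA element was spelled as TATAAA, and the element bound by SP1 and KLF proteins, the GC box, was spelled as GGGCGG. For the NF-Y element the letters CCAAT were used. The E-box of helix-loop-helix factors was searched as CACGTG, and the half-site through which CREB answers to cyclic AMP as TGACG. Below, capitals mark matches to the C/EBP-type sequence or the TATA box, each 5′ to 3′ on the gene's own strand, which is the plus strand for all of these. A match is a description of letters and was not measured as a bound site.
Cebpb, chr3:176816755-176817004: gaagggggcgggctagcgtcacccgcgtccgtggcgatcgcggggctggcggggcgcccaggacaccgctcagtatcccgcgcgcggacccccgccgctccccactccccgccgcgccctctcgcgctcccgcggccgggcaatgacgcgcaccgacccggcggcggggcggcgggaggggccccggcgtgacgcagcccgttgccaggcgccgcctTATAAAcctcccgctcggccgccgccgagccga
Cebpa, chr1:96896334-96896583: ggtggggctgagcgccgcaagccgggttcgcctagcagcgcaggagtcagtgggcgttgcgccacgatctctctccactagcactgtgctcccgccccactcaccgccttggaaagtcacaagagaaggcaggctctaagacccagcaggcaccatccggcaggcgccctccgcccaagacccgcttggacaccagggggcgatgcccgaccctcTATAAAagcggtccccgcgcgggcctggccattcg
Pparg, first start, chr4:150096808-150097057: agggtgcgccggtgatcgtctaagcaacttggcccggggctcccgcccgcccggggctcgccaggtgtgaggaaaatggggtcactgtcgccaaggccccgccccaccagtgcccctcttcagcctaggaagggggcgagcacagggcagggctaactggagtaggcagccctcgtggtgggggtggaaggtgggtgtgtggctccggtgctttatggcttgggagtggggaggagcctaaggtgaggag
Pparg, second start, chr4:150154522-150154771: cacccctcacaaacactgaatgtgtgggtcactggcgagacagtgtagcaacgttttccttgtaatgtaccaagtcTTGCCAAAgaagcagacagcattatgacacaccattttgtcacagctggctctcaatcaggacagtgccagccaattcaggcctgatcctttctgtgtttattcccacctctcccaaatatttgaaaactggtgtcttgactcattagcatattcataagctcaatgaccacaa
Cebpb and Cebpa each carry a TATA box, beginning 33 and 35 bases before the start, whereas 12.9% of all 33469 promoters in the table hold one. Neither stretch has a C/EBP-type match. The upstream start of Pparg has none either and holds 3 GC boxes. The second start, 57714 bases further along the gene, has 1 C/EBP-type match beginning 174 bases before it, and 37.2% of all promoters hold such a match. The GC content was 80% for Cebpb, 67.2% for Cebpa, 67.2% for the upstream Pparg start and 44.8% for the second, beside a median of 51.2% over all promoters. The count table has 1 value per gene, so the transcripts from the 2 Pparg starts cannot be told apart in these data.

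Across the 9 promoter stretches, 6 held a GC box (30.5% of all promoters), 5 a CCAAT box (34%), 3 the cyclic AMP half-site (18.2%), 2 a C/EBP-type sequence, 2 a TATA box and 1 an E-box (5.59%). The other C/EBP-type match lay in the Rxra stretch, 73 bases before its start. The Klf5 stretch, of a gene that rose, held 3 CCAAT boxes and no GC box. Klf15 had the only E-box. The half-site occurred 3 times before the Cebpb start, 2 times before Klf15 and once before Klf5, so it was found both in factors that fell and in one that rose.

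Ratios of counts within a library do not depend on the scaling between libraries, so they show how the makeup of the factor set changed. Their size reflects transcript length as well as level, so each ratio is read only between groups. Cebpa stood at 15.2 ± 0.445 counts per 100 Cebpb counts in young and 14.0 ± 0.726 in aged libraries (SD, n = 3 each). Rxra per 100 Cebpb counts was 28.4 ± 0.400 in young and 32.0 ± 2.15 in aged libraries. The groups did not overlap in either ratio, but the proportions among these 3 genes moved little while each gene fell more than 3-fold.

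Other proportions shifted more. Cebpd per 100 Cebpb counts went from 34.2, 35.6 and 34.0 in young to 17.1, 17.9 and 17.8 in aged libraries. Pparg per 100 Cebpa counts went from 9.94, 11.8 and 10.7 to 3.66, 1.19 and 2.52. Srebf1 per 100 Cebpa counts went from 52.1, 57.8 and 52.0 to 116, 111 and 105, that is, it moved the other way, because Cebpa fell further than Srebf1. Ebf2 per 100 Klf5 counts went from 145, 107 and 106 to 358, 384 and 289. In each of these ratios the 2 groups were fully apart.

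**Figure D3:**
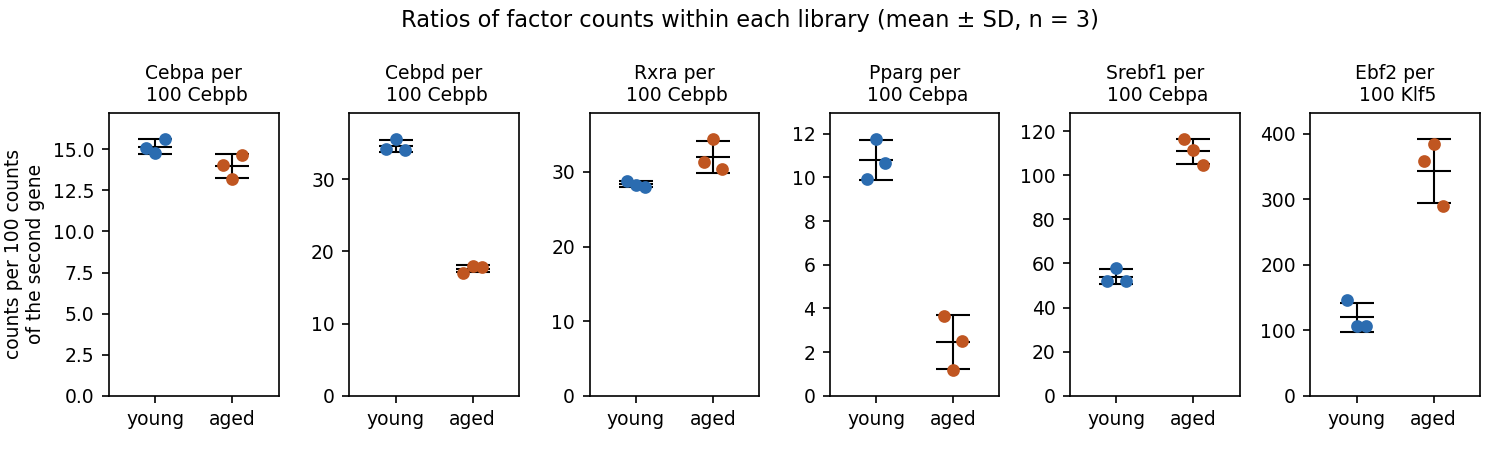
Counts of 1 factor per 100 counts of another in the same library (vertical axes from 0), for the 3 young (blue) and 3 aged (orange) libraries with mean and SD. Cebpa and Rxra keep nearly the same ratio to Cebpb, whereas Cebpd and Pparg lose ground and Srebf1 and Ebf2 gain against the gene they are divided by.

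As a single summary, the mean log2 CPM of the late factors minus that of the early factors was taken in each library. It was 0.35, 0.22 and 0.27 in young libraries and -0.97, -1.20 and -1.13 in aged ones. The aged mean lay 1.38 below the young one on the log2 scale. The late mean dropped, most through Pparg (-4.14 in the edgeR fit), while the early mean, held up by Klf5 and Ebf2, dropped less. The early factors Cebpd and Cebpb changed by -2.88 and -1.91, beside -2.02 for the late factor Cebpa and -1.73 for Rxra. The score thus reflects single genes and is not a measure of stage. Because the factors were chosen with earlier results of these data known, no test was made of this score.

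The nearest relatives of the factors went both ways. Of 17 tested relatives in the C/EBP, KLF, EBF and SREBP families, 8 rose, 4 fell and 5 were not called, with a median log2 change of 0.18. Scaled by library size alone, 14 of these rose and 3 fell. In the main scaling, 44.7% of all tested genes were higher and 41.8% lower, and 86.4% were called. Cebpg, a C/EBP partner without an activation domain, was at 72.5 ± 2.22 CPM in young and 71.0 ± 5.08 CPM in aged cells (SD, n = 3; edgeR adjusted p = 0.63). Ddit3, which encodes CHOP, a C/EBP relative that blocks C/EBP binding, rose 2.7-fold from 15.8 ± 0.860 to 42.7 ± 0.810 CPM. Klf6 and Klf9, KLF genes linked to the promotion of adipogenesis, rose 2.52-fold and 2.79-fold. Ebf1 rose 1.4-fold, Ebf4 fell 3.91-fold, and Ebf3 was at 2.20 ± 0.719 and 2.51 ± 0.238 CPM without a call. Srebf2, the cholesterol-directed relative of Srebf1, fell 3.11-fold, and Srebf1 per 100 Srebf2 counts went from 44.4 ± 1.46 to 69.9 ± 6.30.

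Of 13 tested nuclear receptors that pair with RXR or belong to its family, 10 fell and 3 rose, with a median of -0.51. When scaled by library size alone, 10 were called (3 higher and 7 lower). In the main scaling, 41.8% of all tested genes were lower and 44.7% higher. Rxrb fell 1.43-fold, and Rxrg had at most 1 count in any library. Nr4a1, an immediate-early receptor gene, stood at 935 ± 26.2 CPM in young and 13.6 ± 0.372 CPM in aged cells, a fall of 68.8-fold (edgeR adjusted p = 1.3e-22). Its relative Nr4a2 fell 3.24-fold, and Thra, a thyroid hormone receptor gene, fell 3.47-fold. The PPAR genes differed: Ppard fell 2.71-fold from 39.8 ± 1.02 to 14.7 ± 0.916 CPM, whereas Ppara rose 3.2-fold from 2.33 ± 0.673 to 7.46 ± 1.09 CPM. Rarb, a retinoic acid receptor gene, had 1 count in all young libraries and 74 in the aged ones, a ratio of 65.5 (95% exact binomial interval 11.4 to 2623, counting error only).

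The signals that raise the early factors were divided, with shares near those of all tested genes, 44.7% higher and 41.8% lower. Of 18 tested genes of glucocorticoid, cyclic AMP and insulin input, 8 rose, 7 fell and 3 were not called, with a median of -0.10 that became 0.24 when scaled by library size alone. Nr3c1, the glucocorticoid receptor gene, rose 4.8-fold from 37.0 ± 4.76 to 178 ± 2.39 CPM, while Hsd11b1, whose enzyme regenerates active glucocorticoid in the cell, fell 3.75-fold from 380 ± 6.49 to 101 ± 3.40 CPM. Tsc22d3, a glucocorticoid-induced gene, rose 2.46-fold, and another, Fkbp5, was at 68.9 ± 2.40 and 63.9 ± 2.81 CPM (edgeR adjusted p = 0.057). Pde4b, which encodes a cyclic AMP phosphodiesterase, fell 3.28-fold. The insulin receptor substrate gene Irs1 rose 2.37-fold and Irs2 fell 1.54-fold.

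Genes that act downstream of C/EBP beta and delta in inflammation were lower throughout. All 14 listed genes were tested, each of them fell, and the median log2 change was -3.27, also with Il1b, which had no aged counts, at its bound. Among all tested genes, 41.8% were lower. The interleukin-1 receptor antagonist gene Il1rn fell 47-fold from 1064 ± 29.4 to 22.6 ± 1.58 CPM, and Hp, encoding haptoglobin, fell 37.1-fold from 231 ± 9.26 to 6.21 ± 0.530 CPM. Ptx3, encoding a soluble pattern-recognition protein, fell 23.6-fold, and the chemokine gene Cxcl1 fell 9.35-fold. The smallest falls were in Ccl2, a monocyte chemokine gene, at 1.77-fold, and in Saa3, an acute-phase gene, at 1.85-fold. Many of these genes also answer to NF-kappaB, so the list does not read C/EBP activity alone.

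Downstream of PPARG and C/EBP alpha, 25 of 31 tested genes of the differentiated fat cell fell, 4 rose and 2 were not called. Their median was -2.28, also with genes lacking aged counts set at their bounds. Among all tested genes, 41.8% were lower and 44.7% higher. Fabp4, the fatty acid-binding protein gene, had 12004, 11902 and 11291 counts in young and 1, 2 and 0 in aged libraries. Retn, which encodes resistin, and Cd36, which encodes a fatty acid transporter, had 0 counts in every aged library; taking 3 counts per library as the floor, they were at least 221-fold and at least 19-fold lower. Plin1 and Cidec, lipid droplet protein genes, fell from 25.7 ± 0.793 to 0.186 ± 0.0526 CPM and from 5.30 ± 0.519 to 0.0854 ± 0.148 CPM. Dgat2, of triglyceride synthesis, fell 14.6-fold, and Lpl, encoding lipoprotein lipase, fell 6.91-fold.

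Other markers of mature fat cells were near 0 in both groups. Adipoq, the adiponectin gene, had 12, 18 and 3 counts in young and 2, 3 and 1 in aged libraries and was too low to test, and so was the leptin gene Lep. The summed level of the 8 adipocyte markers was 387 to 411 CPM in young and 0.944 to 1.40 CPM in aged libraries, and Fabp4 made up most of it in young cells. Retn alone was at 0 in all aged libraries. In bulk RNA, fewer cells entering the fat lineage and less RNA per cell cannot be told apart.

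The lipid synthesis genes under SREBP1 showed a smaller change. Of 18 tested, 11 fell, 4 rose and 3 were not called, with a median of -0.30 that became 0.03 when scaled by library size alone (6 higher and 6 lower). Fads2 and Fads1, the fatty acid desaturase genes, fell 13.6-fold and 7.45-fold, and Slc25a1, the mitochondrial citrate carrier gene, fell 3-fold. Me1, the malic enzyme gene, rose 3.95-fold from 33.6 ± 4.25 to 133 ± 2.10 CPM. The core enzyme genes of fatty acid synthesis moved little: Fasn fell by 0.33, Acly fell by 0.11 and Acaca rose by 0.22 on the log2 scale, and the shift between scalings is at least as large as the falls of Fasn and Acly, so the direction of those is not settled. Of 7 genes that process or degrade SREBP proteins, 5 fell and 2 rose, beside the same shares of all tested genes. The median of those 7, -0.13, became 0.21 when scaled by library size alone, with 2 lower and 4 higher. Mbtps1, encoding the site-1 protease, fell 3.63-fold and Mbtps2, encoding the site-2 protease, rose 7.11-fold. Fbxw7, a ubiquitin ligase gene that targets SREBPs for degradation, rose 2.62-fold.

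Among 13 tested targets of KLF15 or the glucocorticoid receptor, 8 fell, 4 rose and 1 was not called, with a median of -0.73. Scaled by library size alone, 7 of these fell and 6 rose. In the main scaling, 41.8% of all tested genes were lower and 44.7% higher. The genes named below are all among those that fell. Slc2a4, the insulin-dependent glucose transporter gene, fell 4.37-fold from 2.61 ± 0.572 to 0.591 ± 0.206 CPM. Prodh and Bcat2, amino acid catabolism genes under KLF15, fell 5.9-fold and 1.66-fold. Adm, encoding adrenomedullin, fell 4.38-fold, Glul, encoding glutamine synthetase, fell 2.43-fold, and the metallothionein gene Mt1 fell 3.67-fold.

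**Figure D4:**
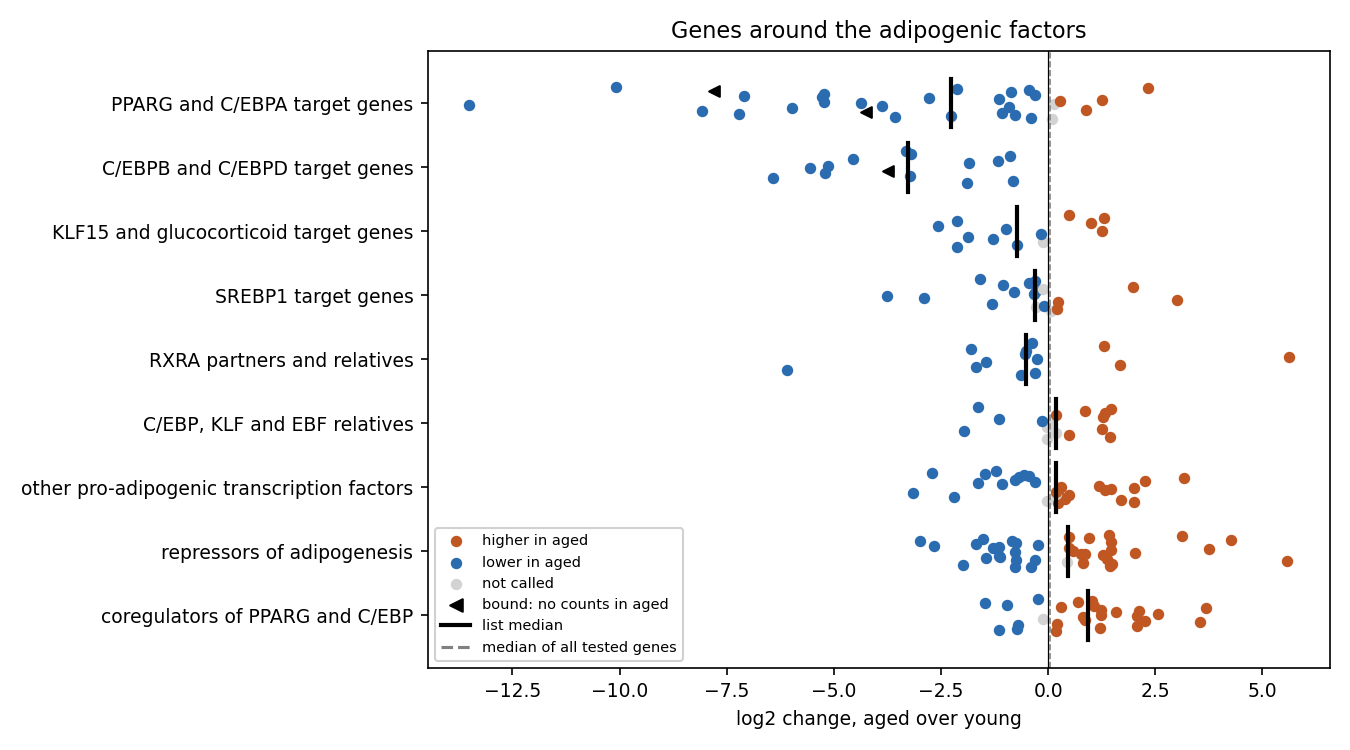
Log2 change, aged over young (horizontal axis), of each tested gene in 9 groups around the adipogenic factors, which are left out; orange is higher, blue lower and grey not called, black triangles are bounds for genes with no aged counts, and the black bars are group medians. The medians run from -3.27 for the inflammatory C/EBP targets to 0.94 for the coregulators, beside 0.05 for all tested genes (dashed).

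Other factors listed as promoting adipogenesis were divided, with 14 of 28 tested genes higher, 12 lower and 2 not called, and a median of 0.18. Scaled by library size alone, 16 rose and 10 fell. In the main scaling, 44.7% of all tested genes were higher and 41.8% lower. Zfp423, which commits cells to the fat lineage and raises Pparg, fell 6.53-fold from 14.3 ± 0.586 to 2.20 ± 0.375 CPM. Egr2, an early inducer of Cebpb, fell 8.9-fold. Nfil3 and Xbp1, leucine-zipper factor genes, fell 3.1-fold and 2.76-fold. Rora, a nuclear receptor gene of the clock, rose by 3.17 on the log2 scale from 5.56 ± 0.550 CPM in young cells. The role of Rora as a promoter of adipogenesis is open to question.

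Genes listed as holding adipogenesis back also went both ways, with 19 of 38 tested higher, 18 lower and 1 not called, and a median of 0.46. Scaled by library size alone, 20 rose and 15 fell. In the main scaling, 44.7% of all tested genes were higher and 41.8% lower. Dlk1, the preadipocyte factor lost as fat cells mature, was at 1.04 ± 0.0479 CPM in young and 0.261 ± 0.209 CPM in aged cells and fell 3.97-fold (edgeR adjusted p = 0.0011), on 36 to 39 counts per young and 3 to 20 per aged library. Zeb1, a zinc-finger factor gene, rose 8.68-fold, while Twist2 fell 7.98-fold and the inhibitor gene Id3 fell 2.74-fold. The role of Zeb1 as a repressor of adipogenesis is open to question. The Wnt genes differed: Wnt5a fell 2.87-fold from 1099 ± 50.6 to 382 ± 6.79 CPM, and Wnt10b rose from 11, 7 and 5 counts in young to 185, 177 and 145 in aged libraries. Gata3, which represses the Pparg promoter, rose from 1, 15 and 3 counts to 352, 372 and 319. Zfp521, an opponent of EBF and Zfp423 action, rose 2.68-fold, and Sirt1, a deacetylase gene that restrains PPARG, rose 13.5-fold. In the other direction, Tcf7l1 fell 6.38-fold, Tgfb1 fell 3.23-fold and Smad3 fell 2.42-fold.

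Coregulators of PPARG and the C/EBP proteins were mostly higher. Of 26 tested, 19 rose, 6 fell and 1 was not called, with a median of 0.94. Among all tested genes, 44.7% were higher and 41.8% lower. Nrip1, encoding the corepressor RIP140, rose 12.8-fold from 2.30 ± 0.407 to 29.6 ± 1.57 CPM, and Kdm6a, a histone demethylase gene, rose 11.6-fold. The coactivator genes Ncoa3 and Ep300 rose 4.35-fold and 4.21-fold. Carm1, Smarcb1 and Smarca4, of histone methylation and chromatin remodelling, fell 2.21-fold, 2.78-fold and 1.96-fold. Ppargc1a, the coactivator gene of mitochondrial biogenesis and brown fat, was too low to test in both groups.

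Several of the factors are also active in blood cells, so markers of other cells were read beside them. Of 11 myeloid markers in the table, 4 could be tested, of which Csf1r rose and 3, among them Cd14, fell. The summed level of the 11 was 93.6 to 96.6 CPM in young and 43.7 to 44.8 CPM in aged libraries. This fall was mainly that of Cd14. Ptprc, the leukocyte gene CD45, was at 0 in all young libraries, and Adgre1, Tyrobp and Aif1 were at 0 in all aged ones. Most of the young sum came from Cd14, at 80.7 ± 0.772 CPM, and the aged sum was mainly Cd14 and Csf1r, at 21.0 ± 0.600 and 21.8 ± 0.552 CPM. Spi1, the defining factor gene of the myeloid lineage, had means of 0.255 ± 0.0343 and 0.0751 ± 0.0694 CPM.

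The 7 endothelial markers summed to 0.237 to 0.582 CPM in young and 0.718 to 1.02 CPM in aged libraries, with Cdh5 and Tie1 at 0 in all aged ones. Only Tek could be tested among these, and it rose. The 7 osteoblast markers summed to between 9.82 and 10.97 CPM in young and between 8.92 and 11.9 CPM in aged libraries, with Dmp1 at 0 in young libraries. One of 4 tested, Ibsp, fell. The 5 smooth muscle markers summed to 2080 to 2194 CPM and 2286 to 2356 CPM, with 3 higher and 2 lower, or 4 and 1 when scaled by library size alone. Of the 11 stromal markers, 7 fell, 2 rose and 2 were not called, whereas 6 fell and 5 rose when scaled by library size alone. Their sum went from 46868 to 47558 CPM in young to 24192 to 24419 CPM in aged libraries, with none at 0. Among all tested genes, 44.7% were higher and 41.8% lower in the main scaling. The part of these cell markers in the factors' changes was not tested.

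Likeness of pattern was measured as the distance between log2 CPM profiles over the 6 libraries, each centred on its own mean. With 2 groups, it mainly finds genes with the same change. For Pparg the closest genes were Prr15, Efcab11 and Mepe, at distances of 0.52 to 0.65, and no gene lay within 0.2. For Cebpa they were Gramd4, Scarf2 and Socs3, at 0.08 to 0.12, with 57 genes within 0.2, and for Cebpb they were Ptprn, Gys1 and Plbd2, at 0.04 to 0.05, with 151. Ebf2 was nearest to Tet2, Ep300 and Rasgrp3, at 0.06 to 0.09, with 58 within 0.2. Klf5 was nearest to Gstcd, Wdr27 and Pcdh18, at 0.26 to 0.30, with none.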

How the data were processed

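Gene levels were measured by RNA sequencing in 3 young and 3 aged libraries. The values the authors deposited are raw counts of reads per gene, without normalization, in 1 table. Per the submitters' processing notes, fastp, HISAT2 and HTSeq were used; their versions and settings, the build, annotation, strand setting and filters were not given in the sources used here, so reads of overlapping genes cannot be told apart. Columns were matched to samples by library name. All 9 factor symbols matched RefSeq symbols of GRCr8, as did 19087 of the 21026 symbols.

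The test was run in edgeR 4.0.16 (R 4.3.3) over all 6 libraries with group as the only term. Genes were kept by filterByExpr (minimum count 10), scaled by TMM, and compared by the quasi-likelihood test with Benjamini-Hochberg adjustment over the 14273 genes tested. Standard errors are the log2 change divided by the square root of F. Log2 CPM used a prior count of 2. Where a group had 0 counts, a lower bound was taken against 3 counts per library, which is 0.0688 to 0.0840 CPM. Totals were 34638874 to 42479626 counts. The procedure was tested on simulated data in which few genes changed. That test does not cover data in which 86.4% of tested genes were called.

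The 9 members and the lists were chosen with earlier results of these data known. The text names all 9, up to 4 genes with the smallest p from each list, and Fabp4, Adipoq, Plin1, Cd36, Lpl, Cidec, Dlk1, Srebf2 and Rxrb. Other genes named were chosen after their values were seen. A gene that this rule names is not reported here. Alternatives were other scalings and filters, DESeq2 1.42.0, limma-voom (limma 3.58.1), a replicate block, leaving out each library, and a test against a 1.5-fold change.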

Additional observations from a re-analysis of the deposited data

How the results depend on the processing

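The 7 factors that fell, and Ebf2, kept their direction and call under all 15 alternatives. Over these the log2 change ran from -4.55 to -3.77 for Pparg, -2.91 to -2.55 for Cebpd, -2.08 to -1.69 for Cebpa, -1.93 to -1.57 for Cebpb, -1.77 to -1.40 for Rxra, -1.03 to -0.65 for Srebf1, -0.80 to -0.39 for Klf15 and 2.02 to 2.42 for Ebf2. Klf5 stayed higher at 0.35 to 0.87, and its values ran from 0.35 to 0.65 when 1 library was left out. Its change of 0.54 did not pass the test against a 1.5-fold change (edgeR adjusted p = 0.47). The late minus early difference ran from -1.44 to -1.33. Replicate numbers did not pair the libraries: deviations of same-numbered libraries correlated at -0.0130, 0.00113 and 0.00981 across genes. With the replicate block, 12162 genes and all 9 factors were called. Against a 1.5-fold change, 15 other pro-adipogenic factors, 7 RXRA partners, 8 SREBP1 targets, 4 SREBP processing genes and 2 smooth muscle markers were called, since that test asks for a larger change. Called osteoblast markers numbered 3 with library size alone, 2 with no low-count filter, 0 with at least 1 CPM in 3 libraries, 2 with DESeq2, and 1 to 2 when 1 library was left out. Called endothelial markers numbered 3 with no low-count filter, 0 with at least 1 CPM in 3 libraries, 2 with DESeq2, and 1 to 2 with 1 library left out. Tagln changed sign with library size alone (0.21), as did Alpl (0.31), which also did so with at least 1 CPM in 3 libraries (0.013) and without aged replicate 2 (0.078) or aged replicate 3 (0.011); with 1 library left out it ran from -0.18 to 0.078. Depth limits Pparg, with 10 to 32 counts per aged library, and Klf5, with 97 to 233 counts per library across both groups.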
